A study of Homo sapiens with 6 samples.

Results

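ELAPOR1 and ELAPOR2 are a pair of paralogous human genes, and these 2 genes are 2 of the 60483 gene identifiers in the RNA-seq count table of HAP1 cells and HELLS knockout (HELLS KO) cells. They were found in the table by their Ensembl identifiers, ENSG00000116299 for ELAPOR1 and ENSG00000164659 for ELAPOR2. HAP1 (C631) is a near-haploid line derived from a chronic myelogenous leukaemia and served as the wild type. The HELLS KO line was made from HAP1 by the supplier, is a single clone, and carries an insertion of 1 base pair in exon 3 of HELLS. Both were sampled under normal growth with no drug, with 3 libraries from total RNA for each genotype. Because there was 1 knockout clone, an effect of the missing protein and a difference between clones cannot be told apart.

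The names stand for endosome-lysosome associated apoptosis and autophagy regulator. Both genes encode type I transmembrane proteins with a mannose 6-phosphate receptor homology domain, the fold by which receptors of the endosomal system recognise sugars on lysosomal enzymes. ELAPOR1, first named EIG121 and KIAA1324, was described as an oestrogen-induced gene and has been linked to autophagy, to the maturation of secretory granules and to the ER chaperone encoded by HSPA5. ELAPOR2, first named EIG121L and KIAA1324L, has been linked to BMP signalling in vertebrate embryos. HELLS is an SNF2-family chromatin remodeller that has been linked to DNA methylation in other cells. DNA methylation was not measured in these libraries. The study measured global CpG methylation by ELISA and reported no effect of HELLS loss in HAP1 cells. That measure does not resolve single genes, and whether methylation differs between these lines at the ELAPOR genes was not tested.

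ELAPOR1 lies on the + strand of chromosome 1 at chr1:109113679-109206781 and ELAPOR2 on the - strand of chromosome 7 at chr7:86876906-87059654 (GRCh38, GENCODE release 44). The principal transcripts have the same architecture, with 22 exons each and coding lengths of 3039 bases (1013 codons) in ELAPOR1 and 3087 bases (1029 codons) in ELAPOR2. No sequence ambiguity was found between the paralogues, since 0 stretches of 31 bases occur in annotated transcripts of both. Of the 31-base stretches of ELAPOR2, 0.0364% occur in transcripts of another gene. In ELAPOR1 the share was 6.33%, of which the largest part, 149 stretches, belonged to CFAP276, a gene on the opposite strand that overlaps the first annotated bases of ELAPOR1.

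The start of ELAPOR2 is one of the more CpG-rich promoters in the genome. The window from 250 bases before to 50 bases after its main RefSeq start site (chr7:87059605-87059904, GRCh38.p14) holds 45 CpG dinucleotides and is 80.3% G or C. Only 3.48% of 35114 RefSeq promoter windows hold as many CpGs, and the median window holds 14. The 250 bases before the start site (chr7:87059655-87059904, - strand, RefSeq on GRCh38.p14) are shown because they carry 37 of those CpGs, which are printed in capitals, 5′ to 3′ in the direction of transcription.
ELAPOR2 upstream: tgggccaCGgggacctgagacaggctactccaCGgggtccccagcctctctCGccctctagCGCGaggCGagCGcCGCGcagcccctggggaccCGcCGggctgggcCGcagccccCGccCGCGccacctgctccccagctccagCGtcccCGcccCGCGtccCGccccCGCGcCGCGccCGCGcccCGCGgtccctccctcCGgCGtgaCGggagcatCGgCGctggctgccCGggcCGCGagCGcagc
The capitals mark every CG, and in several places 2 of them adjoin as CGCG. A further ELAPOR2 start site lies inside the gene (window chr7:86965850-86966149), and its window holds 2 CpGs at 41.0% G or C. The main start site of ELAPOR1 (window chr1:109113865-109114164) is less rich, with 28 CpGs at 69.3% G or C, a number reached by 26.2% of the windows. Its internal start site (window chr1:109186299-109186598) holds 3 CpGs. The oestrogen response element GGTCANNNTGACC, the E-box CACGTG and the lysosomal CLEAR element, each of which reads the same on both strands and the last of which contains the E-box, were not found in any of these 4 windows. They occur in 0.0570%, 7.26% and 0.353% of all promoter windows, so absence of these letters from 4 windows is the usual case.

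The libraries held between 13641237 and 24400187 counts. Replicate 3 was the deepest library of both genotypes and carries a batch label in both. HELLS itself, the targeted gene, gave 1444, 1488 and 3671 counts in the HAP1 libraries against 1410, 1375 and 2802 in the knockout, and its log2 fold change of -0.24 (SE 0.18) was not called. An insertion of 1 base need not remove a transcript, so this RNA level does not settle the labels. The paper probed both lines for HELLS by western blot and reported that the protein was completely lost in the knockout. Of 20 myeloid and haematopoietic markers, 8 passed the filter on low counts, among them GATA2, TAL1 and RUNX1, and 7 had at most 3 counts in any library. SPI1 and HBG1 were at 0 in every library, and PTPRC, MPO and ELANE had at most 2 counts in any library, so some markers of the labelled leukaemic origin were detected and others were not.

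ELAPOR2 was scarcely detected in HAP1 and readily detected in HELLS KO. In HAP1, replicates 1 to 3 gave 30, 24 and 50 counts, and in HELLS KO they gave 713, 927 and 1902. After TMM normalization these were 2.11, 1.75 and 2.08 CPM (counts scaled to library depth) in HAP1 and 49.0, 64.9 and 78.1 CPM in HELLS KO. Every HELLS KO library was therefore above every HAP1 library, and the lowest HELLS KO library was 49.0 CPM against a highest HAP1 library of 2.11 CPM. Of all 17925 genes tested, 4.99% had all HELLS KO libraries above all HAP1 libraries, and since ELAPOR2 was chosen on this contrast its separation is given as a description with no test.

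The mean level of ELAPOR2 was 1.98 ± 0.203 CPM in HAP1 and 64.0 ± 14.6 CPM in HELLS KO (SD, n = 3 each), a ratio of 32.3. The log2 fold change fitted by edgeR was 5.0 (SE 0.24), which is 32.1-fold. Within replicate numbers the ratio of CPM was 23.2, 37.2 and 37.5, so the batch-labelled pair of replicate 3 gave nearly the same ratio as that of replicate 2, and that of replicate 1 was the lowest. From the summed counts alone, 104 against 3542, the ratio per total count was 33.2, with a 95% exact interval of 27.3 to 40.8 that covers counting error only. The 2 reads of a pair seem to have been counted singly in this table, since in every library between 1.56 and 2.26 times as many genes had 2 counts as had 1. With the counts halved on that account, the interval for ELAPOR2 was 25.2 to 44.7.

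ELAPOR1 stayed close to the limit of detection in both genotypes. Its counts were 0, 6 and 5 in HAP1 and 4, 14 and 19 in HELLS KO, which is 0, 0.436 and 0.208 CPM in HAP1 and 0.275, 0.980 and 0.780 CPM in HELLS KO. The lowest HELLS KO library was below the highest HAP1 library, so the genotypes overlapped, although in each replicate number the HELLS KO value was the larger one. Where no read is seen, the data still allow up to 3 counts, which is 0.123 to 0.220 CPM depending on the library, and the HAP1 mean of 0.215 ± 0.218 CPM (SD, n = 3) is of that size. The HELLS KO mean was 0.679 ± 0.364 CPM.

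ELAPOR1 did not pass the filter on low counts and was therefore not among the tested genes, whereas ELAPOR2 was. With ELAPOR1 returned to the fit, its log2 fold change was 1.65 (SE 0.86), a value given with no test. Its summed counts, 11 against 37, gave a ratio of 3.28 with a 95% exact interval of 1.64 to 7.13 for counting error, or 1.26 to 12.1 with the counts halved. The interval describes counting error of the summed libraries only, and the depth does not allow a closer value. CFAP276, the gene that overlaps the start of ELAPOR1 on the other strand, gave 3, 1 and 2 counts in HAP1 against 1, 1 and 6 in the knockout and was not tested either. The strand setting of the counting is not given in the sources used here, so reads from the shared bases of ELAPOR1 and CFAP276 cannot be told apart.

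Levels of the paralogues can be compared per transcript length with the deposited FPKM values (fragments scaled to transcript length and library depth). ELAPOR2 had 0.258, 0.213 and 0.251 FPKM in HAP1 and 5.95, 7.79 and 9.51 FPKM in HELLS KO. These levels are between the 18.9th and 20.5th percentile of the 24956 genes of the FPKM table in HAP1 and between the 61.4th and 67.7th in HELLS KO, so ELAPOR2 stood at the low end of the table in HAP1 and above its middle in HELLS KO. ELAPOR1 had 0, 0.0465 and 0.0219 FPKM in HAP1 and 0.0291, 0.103 and 0.0829 FPKM in HELLS KO, at most the 11.6th percentile. ELAPOR2 thus exceeded ELAPOR1 in all 6 libraries on the FPKM scale, by 4.58 and 11.5 times in HAP1 replicates 2 and 3, where ELAPOR1 was above 0. In HELLS KO it exceeded ELAPOR1 by 204, 75.9 and 115 times.

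Among all genes called higher in HELLS KO, ELAPOR2 combined a measurable starting level with a high final one. With edgeR's quasi-likelihood test, 398 of 17925 tested genes (2.22%) were called, meaning a Benjamini-Hochberg adjusted p under 0.05 together with a change of at least 1 on the log2 scale, of which 269 (1.50%) were higher and 129 (0.720%) lower in HELLS KO. A larger fitted log2 fold change than that of ELAPOR2 was seen in 169 tested genes. Of the 269 genes called higher, 61 had more than 3 counts in every HAP1 library, and only 3 of these had a larger fold change than ELAPOR2. A higher mean CPM in HELLS KO than that of ELAPOR2 was reached by 11 of the 269. These ranks describe where ELAPOR2 stands on the contrast it was chosen from.

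The genes around ELAPOR2 on chromosome 7 served as a control for the locus. The count table holds 85 genes within 5 Mb of either end of ELAPOR2, of which 25 passed the filter and were tested. None of the 25 was called higher or lower by edgeR, against 2.22% of all tested genes, and DESeq2 called 1 lower. An unadjusted p under 0.05 was seen in 3, without a background share at that threshold. The 25 had a median log2 fold change of 0.08, beside 0.01 for all tested genes, and a range of -1.53 to 1.00. The absolute log2 fold change exceeded that of ELAPOR2 in 0 of the 25. In HAP1, 23 of the 25 had a higher mean CPM than ELAPOR2, and in HELLS KO only 5 did, so ELAPOR2 ranked near the bottom of these genes in one genotype and near the top in the other.

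The closest tested genes upstream had log2 fold changes near 0, and the closest one downstream lay farther away and varied widely between libraries. DMTF1-AS1, a long noncoding RNA and the nearest tested gene upstream of ELAPOR2, had 5.70, 5.17 and 5.63 CPM in HAP1 and 5.57, 5.25 and 4.97 CPM in HELLS KO. DMTF1, which encodes a cyclin D-binding transcription factor and is transcribed from the same region in the opposite direction, had a log2 fold change of 0.08 (SE 0.22). DMTF1-AS1 overlaps DMTF1 on the other strand, and reads from the shared bases may have been assigned to either. SEMA3D, a secreted axon guidance protein and the nearest tested gene downstream, ends at chr7:85187056, more than 1 Mb from ELAPOR2. It had 13.8, 11.4 and 34.9 CPM in HAP1 and 7.29, 16.1 and 29.9 CPM in HELLS KO, with replicate 3 high in both genotypes. Its log2 fold change of -0.17 (SE 0.58) ran from -0.79 to 0.51 with 1 library left out, so it is a weak control for that side. GRM3, a glutamate receptor gene whose end lies next to the end of ELAPOR2, was not tested. It had 0 counts in every HAP1 library and 2, 5 and 7 counts in HELLS KO, values near the limit of detection.

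**Figure D1:**
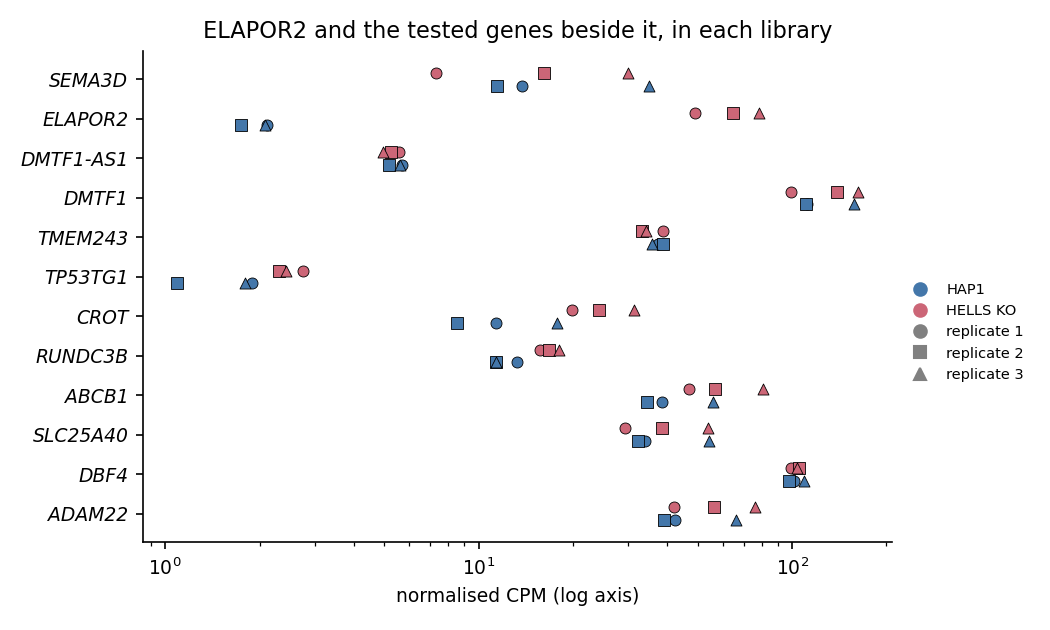
Normalised CPM on a log axis of ELAPOR2 and of the tested genes nearest to it, in their order along chromosome 7, in each of the 3 HAP1 and 3 HELLS KO libraries. ELAPOR2 is the only gene drawn whose genotypes are separated by more than 1 power of 10; those of CROT, RUNDC3B and TP53TG1 are separated by less, and the rest overlap.

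Upstream of ELAPOR2, 10 tested genes start within 1 Mb of its start site, and they fell into 2 kinds. Of these, 4 had log2 fold changes above 0.4 and the other 6 were within 0.25 of 0. CROT, a peroxisomal carnitine acyltransferase, had 11.3, 8.51 and 17.7 CPM in HAP1 and 19.8, 24.2 and 31.3 CPM in HELLS KO, with all HELLS KO libraries above all HAP1 libraries. Its log2 fold change was 1.00 (SE 0.31) with an edgeR adjusted p of 0.314, and with the replicate number as a block it was 1.03 with an adjusted p of 0.0107, so CROT was called with the block but not without it. ABCB1, the multidrug efflux pump, had 38.5, 34.4 and 55.8 CPM in HAP1 and 46.9, 56.6 and 80.5 CPM in HELLS KO and overlapped between genotypes (log2 fold change 0.51, SE 0.26). In each replicate number the HELLS KO value of ABCB1 was the higher one, and with the replicate block its edgeR adjusted p was 0.0412, with a log2 fold change of 0.51 that is too small for a call. RUNDC3B lies within the same stretch as ABCB1 on the other strand and had a log2 fold change of 0.49 (SE 0.17), and the noncoding TP53TG1, whose start adjoins that of CROT, had 0.64 (SE 0.33). Neither was called.

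Beyond 1 Mb, 14 of 15 tested genes had an absolute log2 fold change under 0.31, among them the semaphorin genes SEMA3A and SEMA3E, the calcium channel subunit CACNA2D1 and the Wnt receptor FZD1. The remaining one was CDK14, a cyclin-dependent kinase, with 23.8, 18.8 and 37.7 CPM in HAP1 and 5.71, 8.96 and 12.9 CPM in HELLS KO. Its log2 fold change was -1.53 (SE 0.37) with an edgeR adjusted p of 0.127. DESeq2 called CDK14 lower, and with the replicate block the edgeR adjusted p was 0.00224, so the block gave 1 higher and 1 lower gene in this window, against 2.03% and 1.49% of all tested genes, or 3.51% in either direction. All HELLS KO libraries were above all HAP1 libraries in 3 of the 25 genes (CROT, RUNDC3B and TP53TG1) and below them in 1 (CDK14), against 4.99% and 5.09% of all tested genes, or 10.1% on either side. CROT, CDK14, ABCB1, RUNDC3B, TP53TG1, DMTF1 and the genes farther out were named after their values were seen.

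A CpG-rich start was also present in some neighbours with log2 fold changes near 0. The divergent pair SLC25A40, a mitochondrial carrier, and DBF4, the regulatory subunit of the CDC7 replication kinase, hold 47 and 44 CpGs in their 300-base windows, close to the 45 of ELAPOR2. Their log2 fold changes were 0.01 (SE 0.29) and -0.00 (SE 0.11), and both were well detected in HAP1, at 40.2 and 103 CPM on average. CROT holds 28 CpGs, ABCB1 16 and CDK14 5. SLC25A40 and DBF4 were named after their values were seen, and a relation between CpG content and the change was not tested. The 60 genes of the window that were not tested were at 0 counts in every library in 33 cases and at no more than 3 counts in any library in 48. The highest count among them was 20. A neighbour at the level of ELAPOR2 in HELLS KO would have passed the filter, so this maximum follows from the filter.

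Around ELAPOR1 on chromosome 1, 85 of 205 genes were tested, with a median log2 fold change of 0.02. None was called higher by edgeR and 3 were called lower, against 1.50% and 0.720% of all tested genes. GSTM3, a glutathione transferase, fell from 16.4, 17.5 and 15.4 CPM in HAP1 to 4.67, 4.55 and 5.59 CPM in HELLS KO (log2 fold change -1.73, SE 0.19, edgeR adjusted p = 0.00467). OLFML3, a secreted olfactomedin-like protein, fell from 5.27, 5.6 and 9.71 CPM to 0.412, 0.280 and 0.945 CPM (log2 fold change -3.56, SE 0.50, edgeR adjusted p = 0.0126). SYT6, a synaptotagmin, fell from 7.38, 8.22 and 14.4 CPM to 0.550, 0.700 and 1.48 CPM (log2 fold change -3.40, SE 0.46, edgeR adjusted p = 0.0111). In these 3 genes the libraries of the genotypes did not overlap. Of the 85 genes, 2 had all HELLS KO libraries above all HAP1 libraries and 8 had them below. The shares of all tested genes were 4.99% and 5.09%. With the replicate block DENND2D, KCND3 and LINC01356 were called lower as well, where 1.49% of all tested genes were called lower. The calls of OLFML3 and SYT6 were lost without HELLS KO replicate 1 (edgeR adjusted p = 0.069 and 0.054) and without HELLS KO replicate 2 (0.067 and 0.078). At an unadjusted p under 0.05, 0 of the 85 genes were higher, and DESeq2 and limma also called none higher.

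The nearest tested genes of ELAPOR1 had similar levels in both genotypes. TMEM167B, a small membrane protein of the secretory pathway, had 37.1, 38.6 and 53.5 CPM in HAP1 and 37.9, 37.1 and 49.7 CPM in HELLS KO, and SARS1, the seryl-tRNA synthetase, had 198, 208 and 152 CPM in HAP1 and 196, 194 and 151 CPM in HELLS KO. Both had a log2 fold change of -0.05. SORT1, the sorting receptor sortilin, also lies in this window and had a log2 fold change of 0.02 (SE 0.15).

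The genes of the pathways to which the ELAPOR proteins have been linked mostly had log2 fold changes near 0. Together, 7 lists held 253 genes, of which 217 were tested, with a median log2 fold change of 0.01. By edgeR, 1 was called higher and 3 lower, against 1.50% and 0.720% of all tested genes. With the replicate block these were 1 and 5, against 2.03% and 1.49% of all tested genes.

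**Figure D2:**
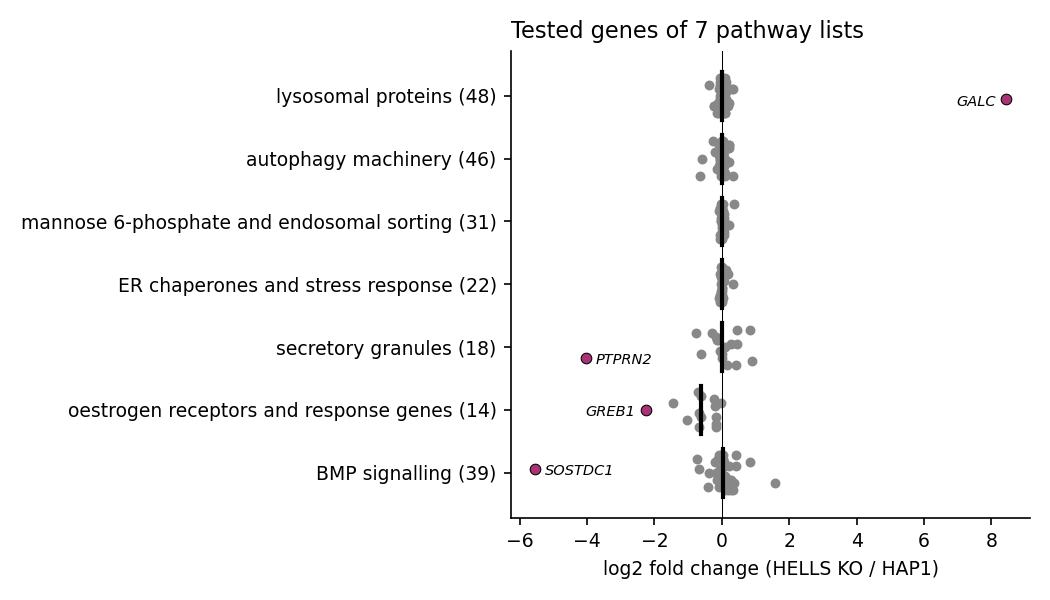
Log2 fold change (HELLS KO over HAP1) of the tested genes of 7 pathway lists, with their number in parentheses, called genes named and a black bar at the median of each list. Medians lie between -0.62 for the oestrogen list and 0.05 for the BMP list, and the fitted value of GALC, a gene at 0 counts in HAP1, depends on the prior count.

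Lysosomal, sorting and autophagy genes are the nearest to the proteins' names, and 1 of them was called. Of 48 tested lysosomal proteins, 1 was called higher and 0 lower, against 1.50% and 0.720% of all tested genes, with a median of 0.02. The called gene was GALC, the lysosomal galactosylceramidase, which had 0 counts in every HAP1 library and 29, 33 and 75 in HELLS KO (edgeR adjusted p = 0.00852). Measured against a limit of 3 counts per HAP1 library it was at least 13.3-fold higher, or at least 6.66-fold with a limit of 6 counts if each fragment gave 2. Without HELLS KO replicate 2 the call was lost, with an edgeR adjusted p of 0.065. PSAP, the precursor of the saposins and the most abundant of the list, had a log2 fold change of -0.04.

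In the list of mannose 6-phosphate and endosomal sorting genes, 31 were tested and 0 were called by edgeR, DESeq2 or limma, and 0 had an unadjusted p under 0.05. Its log2 fold changes ran from -0.08 to 0.36. The mannose 6-phosphate receptors IGF2R and M6PR, which share the homology domain with the ELAPOR proteins, had log2 fold changes of -0.01 (SE 0.23) and 0.01 (SE 0.11), and clathrin heavy chain CLTC, the most abundant of the list, had -0.04. Of 46 tested genes of the autophagy machinery, edgeR, DESeq2 and limma likewise called 0, with 2 at an unadjusted p under 0.05 and a median of 0.01. The autophagy receptor NBR1, its most abundant member, had a log2 fold change of -0.05. The lowest value was that of WIPI1, which binds phosphoinositides on forming autophagosomes, at -0.64 (SE 0.20), chosen after its value was seen.

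ER chaperones also had log2 fold changes close to 0. Of 22 tested members, 0 were called by edgeR, DESeq2 or limma and 0 had an unadjusted p under 0.05, over a range of -0.08 to 0.34. HSPA5, the chaperone linked to ELAPOR1, had a log2 fold change of -0.00 (SE 0.17), and CANX, the most abundant member, had -0.03. XBP1, a transcription factor of the ER stress response that most cells express, was listed at 0 in every library, so a 0 in this table need not mean that a gene is silent.

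Secretory granule genes spread more widely. Of 18 tested, 0 were called higher and 1 lower, against 1.50% and 0.720% of all tested genes. An unadjusted p under 0.05 was seen in 4, of which 3 were higher, without a background share at that threshold. The called gene was PTPRN2, a dense-core granule membrane protein, which fell from 27.2, 28.3 and 27.5 CPM in HAP1 to 1.51, 1.82 and 1.68 CPM in HELLS KO (log2 fold change -4.04, SE 0.19, edgeR adjusted p = 1.9e-04). Its libraries were tight within each genotype and far apart between them. VAMP2, the vesicle SNARE and the most abundant member, had a log2 fold change of 0.01. CPE, the carboxypeptidase that trims prohormones, was named after its values were seen and had 0.45 (SE 0.14), with all HELLS KO libraries above all HAP1 libraries but an edgeR adjusted p of 0.354.

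The oestrogen list was the one whose median left 0. Its 14 tested genes had a median log2 fold change of -0.62 and a range of -2.26 to -0.02, so all lay below 0, and in 5 of them all HELLS KO libraries were below all HAP1 libraries, against 5.09% of all tested genes. By edgeR 0 were called higher and 1 lower, against 1.50% and 0.720% of all tested genes, and DESeq2 called 3 lower. An unadjusted p under 0.05 was seen in 4, without a background share at that threshold. The called gene was GREB1, an oestrogen-receptor cofactor, which fell from 36.6, 36.4 and 29.8 CPM in HAP1 to 6.67, 6.93 and 7.84 CPM in HELLS KO (log2 fold change -2.26, SE 0.18, edgeR adjusted p = 0.00141). With the replicate block, GATA3, a luminal transcription factor, and PGR, the progesterone receptor, were called lower too, against 1.49% of all tested genes. Their edgeR adjusted p values went from 0.0516 to 0.00135 and from 0.165 to 0.00428.

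The oestrogen receptors themselves were scarce. ESR1 had 1.48, 1.02 and 1.25 CPM in HAP1 and 0.412, 0.910 and 1.07 CPM in HELLS KO, and ESR2 had 2.04, 2.76 and 2.92 CPM in HAP1 and 1.65, 0.840 and 2.14 CPM in HELLS KO. Both overlapped between the genotypes and neither was called, with log2 fold changes of -0.62 (SE 0.44) and -0.72 (SE 0.40). FOXA1, the pioneer factor and most abundant member, had -0.21. The 14 tested members of this list had fitted values below 0, and ELAPOR1 and ELAPOR2 had fitted values above 0. The value of ELAPOR1 rests on 11 counts in HAP1 and 37 in HELLS KO. A relation between this list and the ELAPOR genes was not tested. Some epithelial markers were lower too, with EPCAM (log2 fold change -4.88) and KRT8 (-2.61) called lower among 6 tested of 10, against 0.720% of all tested genes. The 6 ran from -4.88 to 0.59 with a median of -0.75, so not all of them were lower. The summed CPM of the 10 markers was 129 to 169 in HAP1 and 67.1 to 80.7 in HELLS KO. KRT5, another marker of the epithelial list, was at 0 in every library, and the part of epithelial genes in the oestrogen list was not tested.

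BMP signalling, the pathway linked to ELAPOR2, had a median close to that of all tested genes. Of 39 tested genes, with a median of 0.05, 0 were called higher and 1 lower, against 1.50% and 0.720% of all tested genes. An unadjusted p under 0.05 was seen in 8, of which 5 were higher, without a background share at that threshold. The receptors BMPR1A and BMPR2 had log2 fold changes of 0.07 (SE 0.28) and 0.08 (SE 0.31), the signal transducers SMAD1 and SMAD5 had 0.12 (SE 0.16) and 0.01 (SE 0.26), and the target gene ID1 had 0.09 (SE 0.21). FSTL1, a secreted follistatin-like protein and the most abundant member, had 0.02. The called gene was SOSTDC1, a secreted BMP and Wnt antagonist, which gave 20, 16 and 90 counts in the HAP1 libraries against 0, 2 and 0 in the knockout (log2 fold change -5.55, SE 1.01, edgeR adjusted p = 0.038). From the summed counts of 126 and 2, the ratio of HAP1 to HELLS KO was 64.6, with a 95% exact interval of 17.5 to 539, or 11.2 to 2591 with the counts halved. The call was lost without any 1 of the 6 libraries, with edgeR adjusted p values from 0.050 to 0.168.

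An antagonist and an inhibitor of the pathway had values above 0, and neither was called. The libraries did not overlap in FST, follistatin, at 1.59 (SE 0.50), and in SMAD7, an inhibitory SMAD, at 0.42 (SE 0.16). All HELLS KO libraries were above all HAP1 libraries in 6 of the 39 tested genes and below them in 4, against 4.99% and 5.09% of all tested genes. FST and SMAD7 were named after their values were seen.

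Some markers of the other cell types that a culture could hold had no counts, which in this table need not mean that they were silent. Fibroblast markers DCN, LUM and FAP were at 0 in every library, and the summed CPM of the 10 fibroblast markers was 213 to 228 in HAP1 and 140 to 152 in HELLS KO. The 5 tested fibroblast markers had a median log2 fold change of 0.03 and a highest value of 0.12. In 1 of these 5 all HELLS KO libraries were below all HAP1 libraries, against 5.09% of all tested genes. The lower sum therefore does not describe the list as a whole. PDGFRA, a growth factor receptor of mesenchymal cells named after its values were seen, had 73.6, 66.6 and 109 CPM in HAP1 and 18.4, 24.1 and 40.0 CPM in HELLS KO, without overlap. Its log2 fold change was -1.59 (SE 0.32) with an edgeR adjusted p of 0.0605, and with the replicate block it was called lower (edgeR adjusted p = 2.4e-04). DESeq2 also called 1 of the 5 tested fibroblast markers lower. The 10 neural and neuroendocrine markers summed to 27.6 to 34.0 CPM in HAP1 and 26.2 to 43.3 CPM in HELLS KO, with ELAVL4 and NEUROD1 at 0 in every library and none called. The 20 myeloid and haematopoietic markers summed to 297 to 329 CPM in HAP1 and 241 to 267 CPM in HELLS KO, with KIT, the stem cell factor receptor, called lower (log2 fold change -2.90), a call that was lost without HELLS KO replicate 1 or without HELLS KO replicate 2 (edgeR adjusted p = 0.069 and 0.111). In bulk RNA, fewer cells of a type and less RNA per cell cannot be told apart.

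The genes whose pattern over the 6 libraries was most like that of ELAPOR2 had no counts in HAP1. By Pearson correlation of log2 CPM, the closest tested genes were the zinc-finger genes ZNF229, ZNF501 and ZNF883, the pseudogene ZNF300P1, and GALC, each with r = 0.999. The genotypes form separate clusters in all of them, so r describes mainly the difference between genotypes. All 5 had 0 counts in every HAP1 library, unlike ELAPOR2. ZNF229 had 249, 379 and 899 counts in HELLS KO. Against a limit of 3 counts per HAP1 library, ZNF229 was at least 145-fold higher and ZNF501 at least 53.4-fold. On the same limit ZNF883 was at least 61.9-fold higher and ZNF300P1 at least 35.1-fold. With a limit of 6 counts if each fragment gave 2, these bounds ran from 17.6-fold for ZNF300P1 to 72.7-fold for ZNF229. In all, 115 tested genes reached an r of 0.99 with ELAPOR2. The genes most like ELAPOR1 were PDCD6-DT, DCUN1D2-AS, LEAP2, TMOD1 and LINC02585, none of them called, with r from 0.951 to 0.980 and log2 fold changes between 0.22 and 0.53. No gene reached 0.99 with ELAPOR1, and the 6 libraries share their depth and batch structure, so these likenesses are descriptions only.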

How the data were processed

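The authors sequenced stranded RNA libraries of HAP1 and HELLS KO cells as read pairs. Per the labels and the study's methods, reads were aligned with STAR 2.7.3a to GRCh38, duplicates and reads with a mapping quality under 20 were removed, and reads per gene were counted with featureCounts 2.0.6. The authors deposited raw counts of 60483 gene identifiers and FPKM values of 24956 genes, which are those with more than 10 counts over the 6 libraries. The deposited FPKM values were recomputed from the counts with DESeq2 size factors, and 100% came out within 0.1%. The annotation release and strand setting are not given in the sources used here. A total of 56321 identifiers were matched without version to GENCODE release 44.

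Counts were fitted with edgeR 4.0.16 in R 4.3.3, with filterByExpr by genotype, TMM normalization, the quasi-likelihood test and Benjamini-Hochberg adjustment over 17925 genes. A call needed an adjusted p under 0.05 together with a change of at least 1 on the log2 scale in either direction. The common biological coefficient of variation was 0.242. Counts of genes at an unadjusted p under 0.05 are descriptions, since the share of all tested genes at that threshold is not given here. The labels call the libraries replicates, and p-values measure only the spread between them. The 6 libraries were not copies of each other (chi-square per gene at least 2.34). ELAPOR1 and ELAPOR2 were chosen on this contrast and are described with no test. The members, the pathway and marker lists and the control windows were chosen with earlier results of these data known.

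Genes were named by rule: HELLS, the nearest tested and the overlapping genes of each member, called genes within 5 Mb and in the lists, the most abundant gene of each list, 11 central list members, and the 5 genes most correlated with each member in log2 CPM (prior count 2). Others were named after their values were seen. Deviations from the genotype means correlated at 0.42, 0.20 and 0.78 between libraries of replicate numbers 1, 2 and 3, all above 0.1, so the numbers were taken to pair the libraries where the replicate block was used. The correlation was 0.59 between HAP1 replicate 2 and HELLS KO replicate 1, and 0.33 between HAP1 replicate 1 and HELLS KO replicate 2. Both are above 0.1 as well, so these values do not favour pairing replicates 1 and 2 by number. Results with the block rest on that assumed pairing. Alternatives were DESeq2 1.42.0, upper-quartile and median-ratio normalization, other filters, the block, a batch term, replicates 1 and 2 only, each library left out, and limma 3.58.1 on log2(FPKM + 1) and log2(FPKM + 0.1), where a fold change understates that of low genes. The steps were tested on simulated counts. Intervals and limits cover counting error only. Those with halved counts or a limit of 6 counts were chosen after seeing the data.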

Additional observations from a re-analysis of the deposited data

How the results depend on the processing

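ELAPOR2 was higher in HELLS KO under every alternative run, and ELAPOR1 was as well wherever it could be fitted. The log2 fold change of ELAPOR2 was 4.50 on log2(FPKM + 0.1), 2.80 on log2(FPKM + 1) and 4.83 to 5.16 with 1 library left out. That of ELAPOR1 was 0.47 and 0.067 on the FPKM scales and 1.13 to 2.42 with 1 library left out. It could not be fitted where every library had to hold 10 counts. Depth limits ELAPOR1, whose 11 counts in HAP1 and 37 in HELLS KO leave a wide interval.

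With the replicate block, which pairs libraries of the same number, 6 genes were called around ELAPOR1, 2 around ELAPOR2 and 5 lower in the lists, and 363 higher and 267 lower of all tested genes. The batch term gave 6, 2 and 5, and 285 lower of all genes. DESeq2 called 1 gene around ELAPOR2, 5 lower in the lists, and 424 higher and 243 lower in all. Without a filter these were 1, 5, 415 and 200. With a minimum of 10 counts per library, 1 gene around ELAPOR1 was called, 0 list genes were called higher, and 29 higher and 48 lower remained in all, where genes at 0 in a genotype are left out. On log2(FPKM + 0.1), 1 gene around ELAPOR2 was called, which was not among the 25 tested by edgeR, of which 0 were called. On log2(FPKM + 1), 0 list genes were called higher, with 146 higher and 52 lower in all. Replicates 1 and 2 alone gave 1 gene around ELAPOR2 and 219 lower in all. A window of 2 Mb left 1 gene called around ELAPOR1.
With 1 library left out, 1 to 3 genes were called around ELAPOR1, 0 around ELAPOR2, 0 to 1 higher and 2 to 3 lower in the lists, and 112 to 273 higher and 40 to 176 lower in all.

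Named genes that were not called without the block, most with log2 fold changes near 0, changed sign when 1 library was left out. Their ranges were BMPR1A -0.13 to 0.42, BMPR2 -0.20 to 0.41, CANX -0.13 to 0.081, CLTC -0.13 to 0.070, DMTF1 -0.096 to 0.27, FSTL1 -0.013 to 0.073, HSPA5 -0.12 to 0.12, ID1 -0.087 to 0.26, IGF2R -0.20 to 0.20, KCND3 -2.71 to 0.11. Further ranges were M6PR -0.040 to 0.039, NBR1 -0.11 to 0.020, PSAP -0.16 to 0.079, SARS1 -0.18 to 0.058, SEMA3D -0.79 to 0.51, SMAD5 -0.18 to 0.29, SORT1 -0.090 to 0.14, TMEM167B -0.21 to 0.14, VAMP2 -0.12 to 0.13. HSPA5 was also 0.0022 under the minimum of 10 counts, M6PR -0.0029 with replicates 1 and 2 only and -0.0052 with upper-quartile normalization, and SMAD5 -0.0037 with upper-quartile normalization. KCND3, at -1.04 with all libraries and called lower with the block, changed sign without HAP1 replicate 3. The cause of these changes was not tested.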
